A study of Mus musculus with 14 samples.

Results

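Pacemaker and conduction genes are described here through 5 genes picked by symbol from the 49315 genes of the count table: Hcn2, Hcn4, Tbx3, Isl1 and Cntn2. Their mRNA was measured in 8 RNA-seq libraries of total RNA from hearts of male, wild-type (WT) C57BL/6 mice on standard chow, 4 libraries at 12 weeks of age and 4 at 68 weeks. No transgene or treatment separates the RNA groups in the labels. H3K27me3, the histone mark that Polycomb repressive complex PRC2 lays down, was mapped at both ages by CUT&RUN, which releases DNA where an antibody is bound. For the mark, 2 libraries and 1 input were made per age, and 1 list of regions per age was used here. The labels do not say which chambers were taken or whether each library is from its own mouse, so p-values measure only the spread between these libraries.

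The heartbeat starts in the sinoatrial node of the right atrium and reaches the ventricles through the atrioventricular node, the His bundle and the Purkinje fibres. HCN channels carry an inward current that opens on hyperpolarisation and is modulated by cyclic AMP, and this current drives the slow depolarisation of pacemaker cells. HCN4 is the main nodal subunit, and HCN2 is also found in working myocardium. TBX3 is a T-box repressor that keeps the working-muscle programme off in nodal and conduction cells. ISL1 is a LIM-homeodomain factor of cardiac progenitors and of the sinoatrial node. Contactin 2, encoded by Cntn2, is an immunoglobulin-family adhesion molecule of axons that also marks the ventricular conduction system.

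Promoter sequence from RefSeq (build GRCm38.p6) was matched for 4 of the 5 genes and is shown because CpG-rich promoters are a usual place for H3K27me3. Each line gives the 250 bases before the gene's start in RefSeq, 5′ to 3′ on the gene's strand, with CpG dinucleotides in capitals. The windows are chr10:79716384-79716633 on the plus strand for Hcn2, chr9:58822699-58822948 on the plus strand for Hcn4, chr13:116309689-116309938 on the minus strand for Isl1 and chr1:132542941-132543190 on the minus strand for Cntn2. Gene spans of the annotation used for counting are given below. The Hcn2 and Isl1 windows lie at the start of their spans. For the other genes shown the RefSeq start differs: the Cntn2 window lies inside its span, and the Hcn4 window ends some way before its span.
Hcn2: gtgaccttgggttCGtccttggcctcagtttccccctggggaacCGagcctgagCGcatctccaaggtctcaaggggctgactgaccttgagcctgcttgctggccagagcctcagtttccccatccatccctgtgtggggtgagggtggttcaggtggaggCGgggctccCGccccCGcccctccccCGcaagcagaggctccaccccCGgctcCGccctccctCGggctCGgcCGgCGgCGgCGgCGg
Hcn4: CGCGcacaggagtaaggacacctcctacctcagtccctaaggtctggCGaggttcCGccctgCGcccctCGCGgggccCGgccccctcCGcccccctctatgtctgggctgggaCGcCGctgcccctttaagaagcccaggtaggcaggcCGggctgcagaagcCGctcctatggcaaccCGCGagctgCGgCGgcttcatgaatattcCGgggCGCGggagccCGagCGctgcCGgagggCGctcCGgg
Isl1: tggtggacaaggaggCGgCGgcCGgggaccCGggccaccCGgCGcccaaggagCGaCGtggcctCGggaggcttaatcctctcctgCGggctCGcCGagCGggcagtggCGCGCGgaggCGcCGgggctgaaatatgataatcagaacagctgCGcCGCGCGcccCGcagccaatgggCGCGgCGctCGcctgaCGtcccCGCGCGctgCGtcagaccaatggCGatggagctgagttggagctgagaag
Cntn2: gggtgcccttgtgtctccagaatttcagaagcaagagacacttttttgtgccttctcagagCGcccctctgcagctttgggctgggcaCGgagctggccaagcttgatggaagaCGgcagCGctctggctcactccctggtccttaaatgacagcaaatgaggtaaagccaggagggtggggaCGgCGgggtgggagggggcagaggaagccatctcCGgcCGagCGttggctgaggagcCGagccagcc
The Isl1 window held 33 CpG, a number reached by 4.03% of 32851 promoter windows of this length, whose median was 6. Hcn4 had 25 CpG, a number reached by 10.7% of windows. Hcn2 had 16, reached by 25.4% of windows, and Cntn2 had 10, reached by 37.8%. The T-box element AGGTGTGA, or TCACACCT on the other strand, was present in 0 of these 4 windows and in 1.12% of all windows. That says only that these letters are not in the windows.

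The 12-week libraries held 23599296 to 31662601 counts each, and the 68-week libraries 28842059 to 34599121. The unit of level is CPM, a count divided by the TMM-normalised library size and rescaled, and 1 count was worth 0.0295 to 0.0431 CPM. The 6 cardiomyocyte markers (Tnnt2, Tnni3, Actc1, Myh6, Ryr2, Actn2) summed to 38500 to 44850 CPM at 12 weeks and to 44870 to 49550 CPM at 68 weeks. The 7 atrial markers (Myl7, Myl4, Sln, Bmp10, Fgf12, Stard10, Dkk3) summed to 941 to 1727 CPM at 12 weeks and to 683 to 2348 CPM at 68 weeks, so both ages held atrial RNA in uneven amounts. The 20 airway epithelium markers added up to 1810, 1018, 625 and 65.1 CPM over replicates 1 to 4 at 12 weeks. At 68 weeks they summed to 31.5, 20.3, 1260 and 28.1 CPM in replicates 1 to 4, so airway RNA was high in 3 libraries at 12 weeks and in 1 at 68 weeks. The sum of the 8 fat cell markers (Ucp1, Cidea, Adipoq, Cidec, Cfd, Plin1, Lep, Retn) was lower at 68 weeks, at 50.3 to 161 CPM against 226 to 650.5 at 12 weeks. Adipoq, Cidec and Cfd were called lower, and Lep alone had a positive log2 fold change (0.85, not called). Ucp1, a large part of several sums, ran from 64.2 to 367.5 CPM at 12 weeks and from 0.893 to 55.0 CPM at 68 weeks. The cardiomyocyte sum and the fat cell sum did not overlap between the ages, and their part in the results was not tested. Ventricular markers (Myl2, Myl3, Irx4, Hey2, Kcnj2, Ttn) summed to 18250 to 24470 CPM at 12 weeks and 19210 to 21400 CPM at 68 weeks. Of these sums, Ttn alone held 9687 to 16930 CPM at 12 weeks and 11200 to 12610 CPM at 68 weeks. Lung mesenchyme and vessel smooth muscle markers (8 genes) summed to 283 to 636 CPM at 12 weeks and 313 to 517 CPM at 68 weeks. That list includes Tbx5 (47.2 to 78.3 and 47.7 to 72.2 CPM), also listed below as a conduction transcription factor, so its sum is not specific to lung or vessels.

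None of the 5 genes was called different between the ages. Of the 4 that passed the filter on low counts, edgeR called 0 at an adjusted p of 0.05, against 2.83% of the 15947 genes tested (1.61% higher and 1.22% lower at 68 weeks). At an unadjusted p under 0.05 edgeR gave 1 of the 4, Tbx3, against 19.0% of all genes tested, and DESeq2 called 0 of the same 4, also with 1 at an unadjusted p under 0.05. The libraries of the ages overlapped for all 5 genes, whereas they did not overlap for 12.1% of the genes tested (6.26% higher and 5.86% lower at 68 weeks). In bulk heart RNA, fewer cells of a type and less RNA per cell cannot be told apart.

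**Figure D1:**
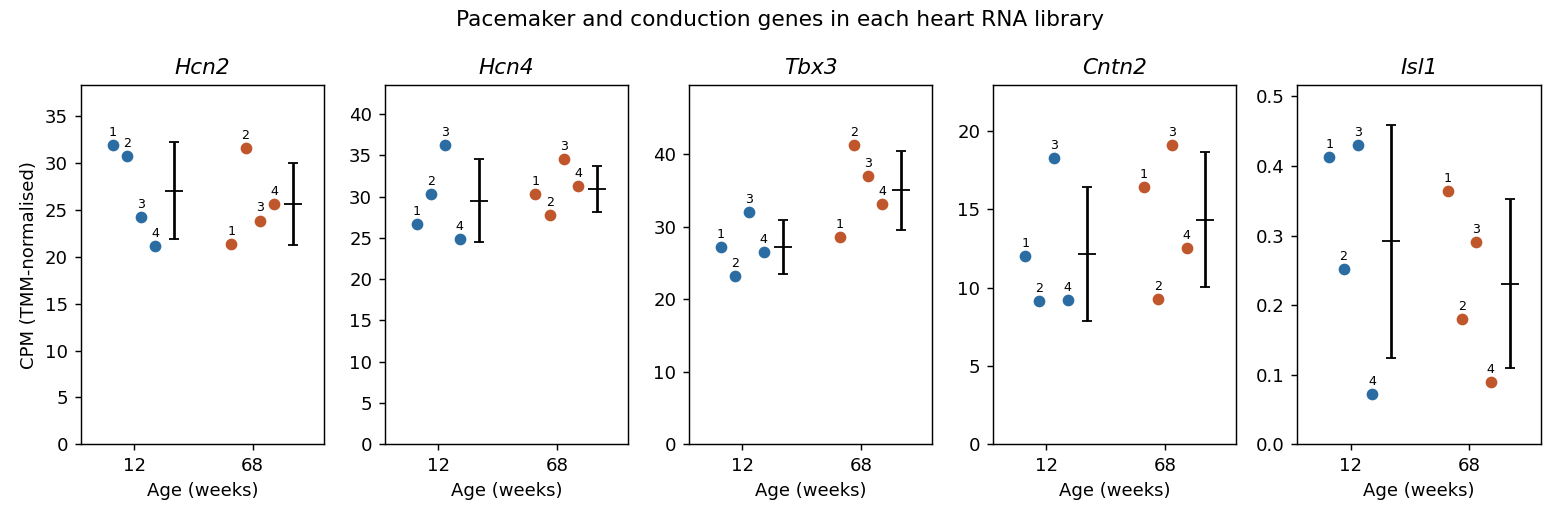
CPM of each gene (vertical axis, from 0) in each library by age in weeks; numbers are the replicate numbers of the labels, and the bar beside each group is the mean ± SD over 4 libraries. The ages overlap in every panel, and Isl1 stays under 0.5 CPM.

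Scaled for exon length, as RPKM (CPM per kilobase of exon), the 5 genes differed widely in level. Hcn2 was the most abundant, at 8.47 ± 1.62 RPKM at 12 weeks and 8.02 ± 1.36 at 68 weeks (SD, n = 4), and over all 8 libraries it was above 72.5% of the genes tested. Hcn4 stood at 4.83 ± 0.824 and 5.06 ± 0.458 RPKM, and Tbx3 at 4.11 ± 0.555 and 5.29 ± 0.821 RPKM. The ranges of Hcn4 and Tbx3 overlapped at both ages. Within each library, Hcn4 lay above Tbx3 throughout at 12 weeks. At 68 weeks it did so except in replicate 2 (4.54 against 6.24 RPKM), and the difference between these genes was not tested. Hcn2 lay above both Hcn4 and Tbx3 in every library of the same age, with 6.63 to 10.0 RPKM at 12 weeks and 6.70 to 9.90 at 68 weeks. Cntn2 followed at 1.31 ± 0.46 and 1.54 ± 0.464 RPKM, below every Hcn4 and Tbx3 value. Isl1 was near the bottom, at 0.0737 ± 0.0422 and 0.0583 ± 0.0306 RPKM, with only 0.771% of the genes tested below it.

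Hcn4 (ENSMUSG00000032338, chromosome 9, 58823412 to 58863175, mm10 by label) was the steadiest of the 5 genes across libraries. It stood at 26.7, 30.3, 36.3 and 24.9 CPM over replicates 1 to 4 at 12 weeks, and at 30.3, 27.8, 34.5 and 31.3 CPM over replicates 1 to 4 at 68 weeks. All 68-week values lay within the range of the 12-week values, and replicate 3 was highest at both ages. The means were 29.5 ± 5.04 CPM at 12 weeks and 31.0 ± 2.80 at 68 weeks. Its log2 fold change, 68 minus 12 weeks, was 0.071 ± 0.11 (SE; 95% interval -0.18 to 0.33; adjusted p = 0.78, edgeR). The sign rested on 12-week replicate 4, the lowest library, without which the log2 fold change was -0.0020.

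Hcn2 (ENSMUSG00000020331, chromosome 10, 79716634 to 79736108) stood at 32.0, 30.8, 24.3 and 21.2 CPM over replicates 1 to 4 at 12 weeks. At 68 weeks it stood at 21.4, 31.6, 23.9 and 25.6 CPM in replicates 1 to 4. Each age held both high and low libraries, between 21.2 and 32.0 CPM in all. The means were 27.1 ± 5.16 CPM at 12 weeks and 25.6 ± 4.35 at 68 weeks, giving a log2 fold change of -0.081 ± 0.15 (95% interval -0.42 to 0.26; adjusted p = 0.812, edgeR). It was 0.012 without 12-week replicate 1. It was 0.31 in the 4 libraries lowest in airway markers, 1 at 12 weeks against 3 at 68 weeks, and -0.28 in the 4 highest, 3 against 1. Each of these sets has an age with 1 library and so no spread of its own, and they are given as values only.

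As the HCN subunits form tetramers, the transcripts of Hcn2, Hcn3 and Hcn4 were also set against each other within each library. Hcn2 and Hcn4 together made up nearly all of their summed RPKM, with Hcn3 at 0.177% to 0.613%. The Hcn4 share was 30.3%, 33.9%, 43.6% and 37.9% over replicates 1 to 4 at 12 weeks, and 42.2%, 31.3%, 42.8% and 38.8% over replicates 1 to 4 at 68 weeks. These shares overlapped between the ages, with means of 36.4% ± 5.70 and 38.8% ± 5.29, a difference of 2.38 percentage points (exact permutation test, two-sided, p = 0.543, n = 4 per age). It was 0.328 points without 12-week replicate 1 and 4.87 without 68-week replicate 2. For the Hcn2 share the means were 63.3% ± 5.86 and 60.7% ± 5.35 (exact permutation p = 0.543). The smallest p that 4 against 4 allows is 0.0286. The summed level of the 3 genes was 13.3 ± 1.8 RPKM at 12 weeks and 13.1 ± 1.1 at 68 weeks (exact permutation p = 0.80, n = 4 per age). Hcn3 had 3 to 9 counts per library and was not tested for age.

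**Figure D2:**
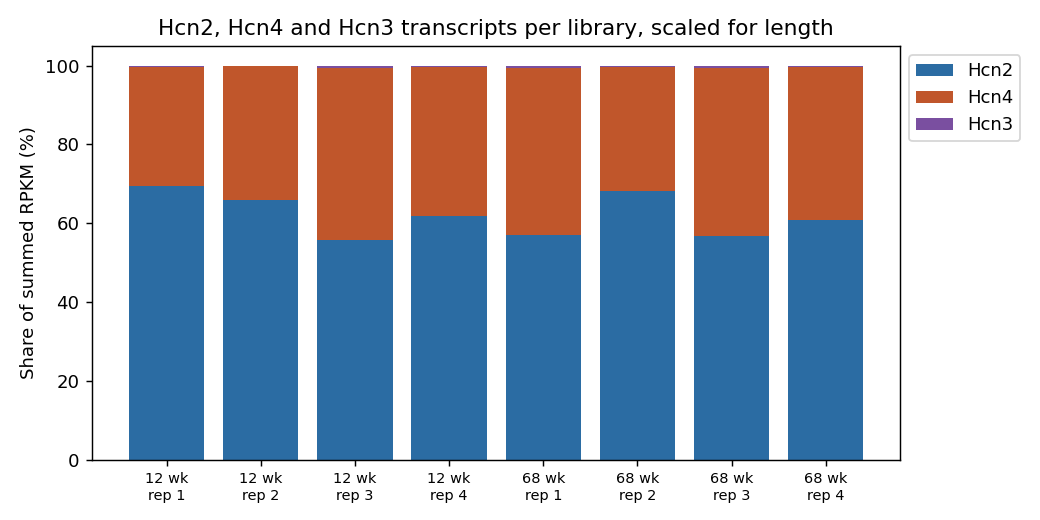
Share of Hcn2, Hcn4 and Hcn3 in their summed RPKM (vertical axis, percent), 1 bar per library, 12 weeks on the left and 68 weeks on the right. Hcn2 holds between 55.8% and 69.5% and Hcn4 between 30.3% and 43.6% of each bar, and the ages overlap.

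Tbx3 (ENSMUSG00000018604, chromosome 5, 119670669 to 119684724) had the largest age difference of the 4 genes tested and did not pass the threshold. Its levels were 27.2, 23.2, 32.1 and 26.5 CPM over replicates 1 to 4 at 12 weeks and 28.5, 41.3, 37.0 and 33.2 CPM over replicates 1 to 4 at 68 weeks. Of the 68-week libraries, 3 lay above every 12-week library, and 68-week replicate 1 lay below 12-week replicate 3. The means were 27.2 ± 3.68 and 35.0 ± 5.44 CPM, giving a log2 fold change of 0.36 ± 0.12 (95% interval 0.089 to 0.64; unadjusted p = 0.0147, adjusted p = 0.149, edgeR). DESeq2 gave an adjusted p of 0.057. Over all 17 alternatives the log2 fold change stayed between 0.28 and 0.45, with adjusted p from 0.057 to 0.72, and leaving out 68-week replicate 1 gave 0.0875 by edgeR.

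The antisense gene Tbx3os1 shares 115 exon bases with Tbx3, 1.74% of its exon length. The sources used here do not say whether strand was used in counting, so reads in that stretch cannot be assigned to either gene. Tbx3os1 had 7 to 24 counts per library, against 645 to 1148 for Tbx3.

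Cntn2 (ENSMUSG00000053024, chromosome 1, 132509427 to 132543256) stood at 12.0, 9.16, 18.3 and 9.21 CPM over replicates 1 to 4 at 12 weeks. At 68 weeks it stood at 16.4, 9.26, 19.1 and 12.6 CPM in replicates 1 to 4. Both ages ran from about the same low value to about the same high value, and replicate 3 was again the highest in each. The means were 12.2 ± 4.28 and 14.3 ± 4.32 CPM, giving a log2 fold change of 0.24 ± 0.26 (95% interval -0.35 to 0.84; adjusted p = 0.661, edgeR). The value ranged from 0.077 to 0.55 over the 17 alternatives and was called in none, the lowest adjusted p being 0.29. With airway markers in the model it was 0.52 ± 0.27 (adjusted p = 0.489, edgeR).

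Because contactin 2 is also a protein of nerve fibres, markers of nerve cells were read beside it. Autonomic neuron markers (11 genes) summed to 15.3 to 25.0 CPM at 12 weeks and 16.7 to 24.7 CPM at 68 weeks, highest in replicate 3 at each age. The cholinergic marker Chat was low, at 0.047 ± 0.0614 and 0.0161 ± 0.0322 CPM. Schwann cell markers (9 genes) summed to 47.6 to 63.1 and 52.5 to 61.8 CPM, also highest in replicate 3 at each age. Among these 9, log2 fold changes were positive for 3 and negative for 6. Mal alone was called, at 19.5 ± 1.79 and 30.2 ± 1.80 CPM (0.63 ± 0.073, adjusted p = 0.00381, edgeR). The part of nerve and Schwann cells in the Cntn2 values was not tested.

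Isl1 (ENSMUSG00000042258, chromosome 13, 116298281 to 116309689) was barely detected. It had 14, 7, 10 and 2 counts in 12-week replicates 1 to 4 and 11, 5, 9 and 3 counts in 68-week replicates 1 to 4, and did not pass the filter. Replicates 1 and 3 held the most and replicate 4 the least at each age, and the ages overlapped. The levels were 0.292 ± 0.167 CPM at 12 weeks and 0.231 ± 0.121 CPM at 68 weeks, a difference of -0.19 in mean log2(CPM + 0.1) (exact permutation test, two-sided, p = 0.686, n = 4 per age). It was 0.048 without 68-week replicate 4 and -0.55 without 12-week replicate 4, the libraries with the fewest Isl1 counts at their age. At 2 to 14 counts per library, a difference within the spread shown could not be detected.

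Other genes of the pacemaker and conduction programme were read from 6 lists, 53 genes in all, of which 44 were tested. Of these, 1 was called higher and 1 lower at 68 weeks, against 1.61% and 1.22% of all genes tested, and 10 of the 44 had an unadjusted p under 0.05, against 19.0% of all genes tested. The median log2 fold change of the 44 was -0.011, and that of all genes tested was -0.0082. Counts per list at an unadjusted p under 0.05, given below, are to be read against the same 19.0%, and genes without overlap against 12.1% of all genes tested.

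Kcne1, which encodes an auxiliary subunit of the slow delayed-rectifier potassium channel, fell. It stood at 3.36, 6.07, 3.62 and 3.39 CPM over replicates 1 to 4 at 12 weeks and at 2.55, 1.87, 2.03 and 2.05 CPM over replicates 1 to 4 at 68 weeks, without overlap. The log2 fold change was -0.95 ± 0.21 (adjusted p = 0.0498, edgeR). The call was lost when any 1 of the 8 libraries was left out (adjusted p from 0.057 to 0.131, edgeR), with values from -1.05 to -0.70. Each fit without 1 library also had fewer calls over all genes. The call was also lost with airway markers in the model, at -0.88 (adjusted p = 0.221, edgeR). So it was with RLE factors (0.0502), atrial markers (0.0724) or a replicate block (0.129), all by edgeR. It was kept with DESeq2 (adjusted p = 0.00287), and by edgeR with library size alone (0.0449) or no filter (0.0238).

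Cntn5, a contactin relative of Cntn2, rose. It stood at 2.86, 4.42, 3.92 and 4.44 CPM over replicates 1 to 4 at 12 weeks and at 7.09, 8.62, 7.80 and 5.09 CPM over replicates 1 to 4 at 68 weeks. The groups did not overlap, and the log2 fold change was 0.87 ± 0.19 (adjusted p = 0.0439, edgeR). The adjusted p was 0.0268 without 68-week replicate 4, 0.0577 to 0.106 without any other single library, and 0.161 with airway markers in the model (0.85, edgeR). The call was lost by edgeR with atrial markers (0.0593) or a replicate block (0.0974). It was kept with DESeq2 (adjusted p = 0.00064), and by edgeR with RLE factors (0.0433), library size alone (0.0473) or no filter (0.0123).

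**Figure D3:**
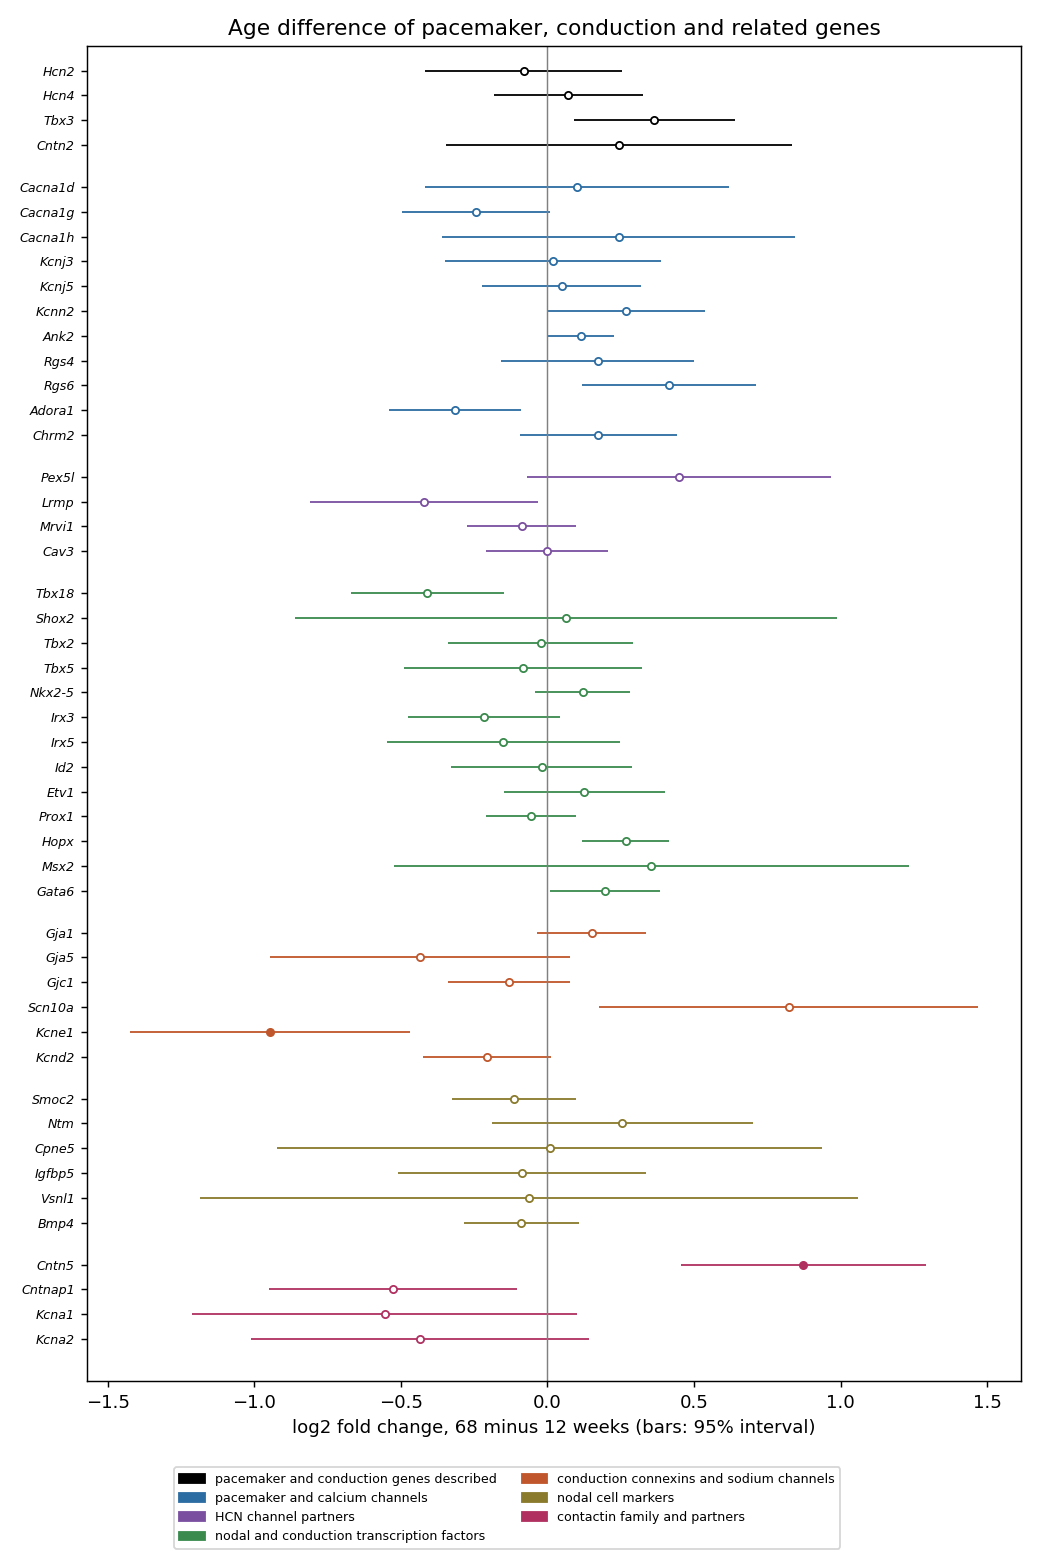
Log2 fold change, 68 minus 12 weeks (horizontal axis), with its 95% interval for the 4 pacemaker and conduction genes tested (black) and the 44 tested genes of the 6 related lists (colours); filled points are called at an adjusted p of 0.05. Kcne1 and Cntn5 are the filled points, and the intervals of Shox2, Cpne5 and Vsnl1 are among the wide ones.

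Of 12 genes in the list of pacemaker and calcium channels and their regulators, 11 were tested and 0 were called by edgeR, with 2 at an unadjusted p under 0.05 and a median log2 fold change of 0.11. The G-protein-gated potassium channel genes Kcnj3 (122 ± 32.2 and 124 ± 16.8 CPM) and Kcnj5 (129 ± 21.2 and 134 ± 17.0 CPM), through which acetylcholine slows the node, had log2 fold changes of 0.018 and 0.049. The muscarinic receptor gene Chrm2 stood at 198 ± 41.2 and 224 ± 2.89 CPM (0.17 ± 0.12). The calcium channel gene Cacna1d, important to nodal firing, stood at 4.95 ± 0.58 and 5.30 ± 1.93 CPM (0.10 ± 0.23), and the T-type gene Cacna1g at 26.7 ± 1.48 and 22.6 ± 4.10 CPM (-0.24 ± 0.11). The T-type gene Cacna1h stood at 49.0 ± 19.2 and 57.8 ± 14.9 CPM (0.24 ± 0.27), and the anchoring protein gene Ank2 at 262 ± 11.4 and 284 ± 11.6 CPM (0.11 ± 0.051). Rgs6, which encodes a regulator of G-protein signalling in the node, stood at 22.3 ± 0.941 and 29.7 ± 6.67 CPM without overlap (0.41 ± 0.13, adjusted p = 0.13, edgeR). Adora1, which encodes the adenosine A1 receptor that slows the node, went the other way without overlap, at 19.1 ± 2.93 and 15.3 ± 0.792 CPM (-0.32 ± 0.10, adjusted p = 0.129, edgeR). Of all genes tested, 12.1% had ages that did not overlap. Kcnn2, a calcium-activated potassium channel gene, stood at 19.7 ± 3.54 and 23.7 ± 1.87 CPM (0.27 ± 0.12).

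Of 13 nodal and conduction transcription factors, 13 were tested and 0 were called by edgeR, with 3 at an unadjusted p under 0.05 and a median log2 fold change of -0.020. Shox2, a homeobox factor of the sinoatrial node, stood at 1.89, 2.30, 4.48 and 2.38 CPM over replicates 1 to 4 at 12 weeks and at 2.09, 1.12, 4.61 and 3.57 CPM over replicates 1 to 4 at 68 weeks (0.064 ± 0.41). Like Hcn4 and Cntn2, Shox2 was highest in replicate 3 at each age. Hopx, a small homeodomain protein, stood at 120 ± 8.83 and 145 ± 9.15 CPM (0.27 ± 0.066, adjusted p = 0.0674, edgeR), and the T-box gene Tbx18 at 6.37 ± 0.704 and 4.81 ± 0.584 CPM (-0.41 ± 0.12, adjusted p = 0.0969, edgeR). Prox1, Nkx2-5, Tbx5 and Gata6, abundant factors of this list, stood at 166 ± 11.7, 70.5 ± 6.92, 64.4 ± 15.9 and 79.2 ± 9.54 CPM at 12 weeks, with log2 fold changes of -0.057, 0.12, -0.083 and 0.19. Irx3, a Purkinje fibre factor, stood at 38.9 ± 4.86 and 33.5 ± 5.05 CPM (-0.22 ± 0.12). Its relative Irx5 stood at 11.2 ± 1.81 and 10.1 ± 2.45 CPM (-0.15 ± 0.18).

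Of 6 nodal cell markers, 0 were called by edgeR, 0 had an unadjusted p under 0.05 and the median log2 fold change was -0.075. Igfbp5 stood at 443 ± 63.6 and 417 ± 126 CPM, Smoc2 at 58.2 ± 7.91 and 53.9 ± 3.70 CPM, and Cpne5 at 4.20 ± 1.59 and 4.20 ± 2.57 CPM. Bmp4 stood at 6.13 ± 0.49 and 5.78 ± 0.334 CPM, Ntm at 1.00 ± 0.196 and 1.19 ± 0.147 CPM, and Vsnl1 at 0.454 ± 0.284 and 0.42 ± 0.226 CPM. Of 8 conduction connexins and channels, 6 were tested and 2 had an unadjusted p under 0.05, Kcne1 and Scn10a, and the median log2 fold change was -0.17. The connexin 43 gene Gja1, which couples working muscle, stood at 587 ± 64.8 and 651 ± 39.0 CPM (0.15 ± 0.083). The connexin 40 gene Gja5, of atrium and His-Purkinje cells, stood at 26.6 ± 10.3 and 19.7 ± 3.30 CPM (-0.43 ± 0.23), and the connexin 45 gene Gjc1 at 19.0 ± 2.14 and 17.3 ± 1.57 CPM (-0.13 ± 0.093). Kcnd2 stood at 38.6 ± 3.66 and 33.5 ± 4.43 CPM, and the sodium channel gene Scn10a at 1.77 ± 0.578 and 3.15 ± 1.07 CPM (0.82 ± 0.29, adjusted p = 0.165, edgeR).

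Among 5 genes of HCN channel partners, 4 were tested, 0 were called by edgeR, 1 had an unadjusted p under 0.05 and the median log2 fold change was -0.045. Cav3, the muscle caveolin gene, stood at 51.3 ± 3.18 and 51.2 ± 7.09 CPM, and Mrvi1 at 30.6 ± 3.44 and 28.8 ± 2.07 CPM. Lrmp stood at 2.12 ± 0.332 and 1.58 ± 0.23 CPM (-0.42 ± 0.17), and Pex5l, which encodes the HCN trafficking subunit TRIP8b, at 0.679 ± 0.0583 and 0.929 ± 0.263 CPM (0.45 ± 0.23). Of 9 contactin relatives and partners, 4 were tested, 2 had an unadjusted p under 0.05, Cntn5 was called and the median log2 fold change was -0.48. Cntnap1, an axonal partner of contactins, stood at 6.15 ± 1.66 and 4.28 ± 0.645 CPM (-0.53 ± 0.19, adjusted p = 0.173, edgeR). The axonal potassium channel genes Kcna1 and Kcna2 stood at 4.36 ± 1.78 and 5.95 ± 2.20 CPM at 12 weeks and at 2.94 ± 0.907 and 4.39 ± 0.996 CPM at 68 weeks.

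Over all 8 libraries, the highest library exceeded the lowest 1.46-fold for Hcn4, 1.51-fold for Hcn2, 1.78-fold for Tbx3, 2.09-fold for Cntn2 and 5.96-fold for Isl1, and the last rests on 2 counts in the lowest library. Across the 8 libraries, Hcn4 and Cntn2 had a Pearson r of 0.781 (exact permutation p = 0.0235, adjusted p = 0.235 over 10 pairs of genes) and a Spearman rho of 0.667 (exact permutation p = 0.0831, adjusted p = 0.57). Without the 2 libraries farthest from the Hcn4 median, r was 0.64, and with each age's mean subtracted it was 0.767. That pair did not pass the correction, and the other 9 pairs had adjusted permutation p of at least 0.603 for r.

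Hcn2 was low where atrial markers were high. The 7 atrial markers summed to 1286, 941, 1645 and 1727 CPM over replicates 1 to 4 at 12 weeks and to 2348, 683, 1889 and 1270 CPM over replicates 1 to 4 at 68 weeks. Of 7 relations computed over the 8 libraries, that of Hcn2 with the atrial sum had a Pearson r of -0.852 (exact permutation p = 0.007, adjusted p = 0.0491) and a Spearman rho of -0.786 (exact permutation p = 0.0279, adjusted p = 0.196). Without the 2 libraries farthest from the median atrial sum, r was -0.796. The relation passed the correction by r, narrowly and over these 7 relations alone, and failed it by rho. The share of all genes tested with as strong an r is not given here, so the relation is not shown to be particular to Hcn2. Cntn2 had an r of the other sign (r = 0.699, exact permutation p = 0.0542, adjusted p = 0.158; rho = 0.595, exact permutation p = 0.132), and r was 0.602 without the 2 farthest libraries. Shox2 had r = 0.58 (exact permutation p = 0.132). Hcn4 (r = 0.268, exact permutation p = 0.519), Tbx3 (r = -0.197, exact permutation p = 0.641, turning to 0.676 without the 2 farthest libraries) and Isl1 (r = 0.179, exact permutation p = 0.675) had smaller values. With 4 libraries per age and 4 per airway set, no value was computed within an age or set. With the atrial sum in the model, the age difference of Hcn2 was -0.069 ± 0.089 and that of Cntn2 0.19 ± 0.20, neither called (adjusted p = 0.717 and 0.646, edgeR).

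**Figure D4:**
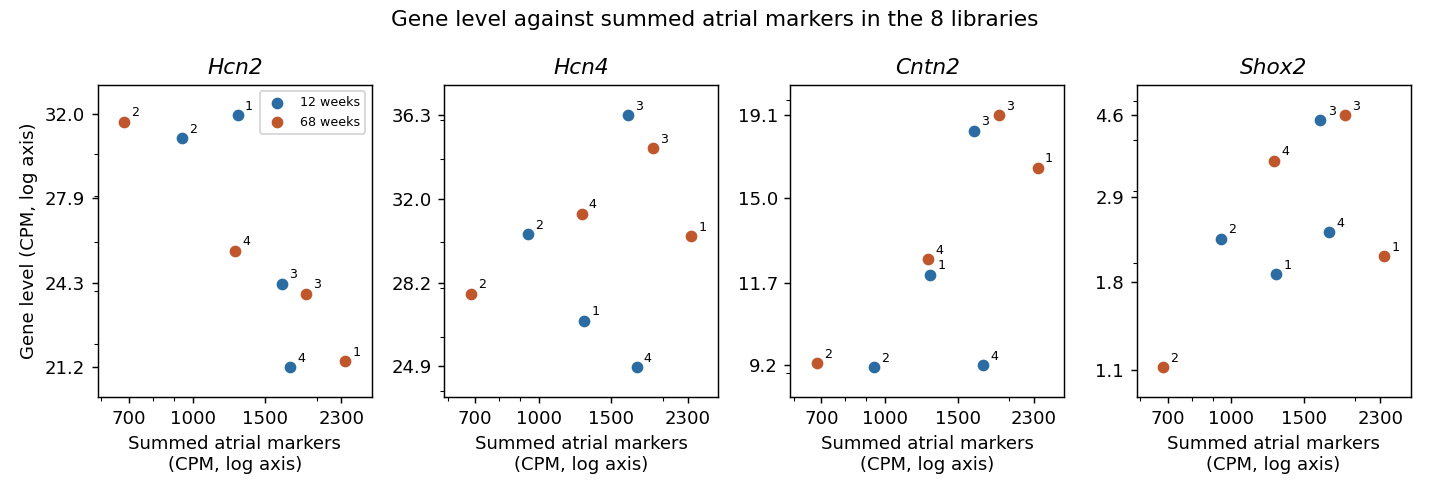
Level of Hcn2, Hcn4, Cntn2 and Shox2 (vertical log axes, CPM) against the summed CPM of 7 atrial markers (horizontal log axis); each point is a library with its replicate number, 12 weeks in blue and 68 weeks in orange. Hcn2 slopes down (r = -0.852), and 68-week replicate 2, lowest in atrial markers at 683 CPM, is also the lowest in Shox2 (1.12 CPM).

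The genes whose levels followed each of the 4 tested genes most closely were taken from 12686 genes by Pearson r of log2 CPM over the 8 libraries. As the highest of 12686 values, these r are descriptions with no test. For Hcn2 they were Nup85 (0.963), Tk1 (0.959), Kcnip2 (0.957), Tmem241 (0.931) and Lyl1 (0.915). Kcnip2, which encodes the partner of Kv4 channels in the transient outward current of ventricular muscle, stood at 112 CPM at 12 weeks and 107 CPM at 68 weeks. For Hcn4 they were Prkar1b (0.948), which encodes a regulatory subunit of protein kinase A, then Ubtd2 (0.897), Bbs5 (0.891), Vmp1 (0.890) and Il17ra (0.888). For Tbx3 they were Pik3r3 (0.960), Hecw2 (0.944), Rps6ka2 (0.944), Caprin1 (0.943) and Wipf3 (0.939), of which Hecw2 was called higher at 68 weeks (log2 fold change 0.44, adjusted p = 0.0472, edgeR). For Cntn2 they were Cep120 (0.951), Zfp9 (0.951), Agpat4 (0.946) and Drd2 (0.939).

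In H3K27me3, 3 of the 5 genes were linked by the authors to a region listed as unique to 1 age. Hcn4 and Cntn2 were linked at 68 weeks, Tbx3 at 12 weeks, and Hcn2 and Isl1 at neither age. As the lists hold regions unique to 1 age, a gene without a link may still carry the mark at both ages. As background, the 68-week list of 3433 regions linked 3.46% of the genes tested and the 12-week list of 1164 regions linked 1.44%. Each region carries the authors' score, an enrichment whose scale is not stated, and no value per library, so no error or test could be given. Positions below are those of the deposited lists, without a build: only 21.7% of the 68-week links and 17.8% of the 12-week links placed the region on the gene's mm10 span, so where these regions lie within or beside the genes was not established.

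Hcn4 was linked to 1 region of 222 bases on chromosome 9 (58767896 to 58768117) with an authors' score of 3.90, above 15.6% of the 68-week regions. Cntn2 was linked to 2 regions on chromosome 1. One (132463239 to 132463607, 369 bases) had a score of 5.83, above 76.3% of the list, and the other (132464462 to 132464786, 325 bases) had 4.89, above 53.7%. Tbx3 was linked at 12 weeks to 1 region of 496 bases on chromosome 5 (119821265 to 119821760), with a score of 4.86, above 62.3% of that list. The 12-week list also linked 4 regions to Tbx3os1 and 2 to Tbx3os2, both antisense genes beside Tbx3, on chromosome 5 between 119793144 and 119826606. Their scores ran from 3.82 to 8.39, the highest (119802903 to 119803124) above 96.5% of the list. Beside these links, the RNA of Hcn4 and Cntn2 did not pass the test between the ages, nor did that of Tbx3.

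Among the 53 related genes, 7 were linked at 68 weeks, by 8 regions, and 1 at 12 weeks. Of all genes tested, the lists linked 3.46% at 68 weeks and 1.44% at 12 weeks, shares that leave out untested genes such as Pcp4. The connexin and sodium channel list held 4 of the 7, namely Gja5, Kcne1, Pcp4 and Scn10a, and the pacemaker channel list held Cacna1d, Cacna1g and Kcnn2. Pcp4 had 1 or 2 counts per library and was not tested in RNA. Scores were 7.53 for Cacna1d, 6.91 for Cacna1g, 6.00 for Kcne1, 5.78 for Kcnn2, 5.33 for Scn10a and 3.84 for Pcp4, and Gja5 had 2 regions with 4.50 and 4.04. At 12 weeks Irx5 was linked to 2 regions, with scores of 6.79 and 3.40. The RNA differences of the genes linked at 68 weeks went both ways: the log2 fold change was 0.82 for Scn10a, 0.27 for Kcnn2 and 0.10 for Cacna1d, and -0.95 for Kcne1, -0.43 for Gja5 and -0.24 for Cacna1g, of which Kcne1 alone was called by edgeR. Cntn5 was linked at neither age, which does not show that the mark was absent.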

How the data were processed

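RNA was measured in 8 heart libraries, and H3K27me3 regions come from 1 list per age. The deposited RNA values are whole-number counts per gene, not normalised, per the file headers. The per-library files were identical to the series table in 8 of 8 libraries. Trimmomatic 0.36, STAR 2.5.2b, featureCounts of Subread 1.5.2 and DESeq2 are named in the submitters' processing notes, without roles; the notes also name MACS3 3.0.0b1, Picard 2.26.2, SAMtools 1.14, Bowtie2 2.4.2 and Trim Galore 0.6.5. The score per region was made by the authors, who call it enrichment. Exon length per gene, in bases, is given in the deposited count files. How strand and multiply mapped reads were handled, and the rule that links genes to regions, are not given in the sources used here.

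Genes were tested with edgeR 4.0.16 (R 4.3.3; quasi-likelihood test, TMM, filterByExpr, age alone), with Benjamini-Hochberg adjustment over 15947 genes at 0.05. An approximate SE was taken from the absolute log2 fold change over the root of the F statistic, and 95% intervals use it. HCN shares and Isl1 (pseudocount 0.1) were compared with exact permutation tests. The fits were tested on simulated data. Members and lists were chosen with earlier results of these data known. Besides the 5 genes, the text names up to 6 genes of each related list, those with the highest CPM among those tested plus those called. It also names every list gene linked to a region, and the 5 genes most like each tested member (prior count 2, mean log2 CPM of at least 0, no predicted genes). Marker lists are named in full, by their called genes, or only as sums. Adora1, Hcn3, Shox2, Tbx18, Tbx3os1, Tbx3os2 and Chat fall outside this rule and were named after their values were seen. A few genes are not reported here: counts, sums and shares over lists leave them out, and the adjustment over 7 relations with atrial markers keeps 1 of them. Alternatives were library size alone, RLE factors, no filter, DESeq2 1.42.0, a block, airway or atrial markers in the model, libraries split by airway counts, and leaving out each library. No 2 libraries of the same age agreed within sampling noise (chi-square test of their counts, lowest ratio to its degrees of freedom 15.68).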

Additional observations from a re-analysis of the deposited data

Results flagged for a closer look

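Hcn3 in 12-week replicate 3 stood at 0.344 CPM, apart from the other 3 libraries of that age at 0.108 to 0.147 CPM; it rests on 8 counts against 3 to 5. The summed airway markers of 68-week replicate 3 stood at 1260 CPM, while the other 3 of that age held 20.3 to 31.5 CPM. Both gaps pass a limit that chance alone passes in about 1 in 20 groups; how often chance gives gaps of these sizes was not computed.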

How the results depend on the processing

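None of the 5 genes was called under any alternative run. Directions were kept for Tbx3 and Cntn2 in 17 of 17 alternatives, for Hcn4 in 16 and for Hcn2 in 15. Hcn2 turned to 0.31 in the 4 libraries lowest in airway markers, where the lone 12-week library was assumed to vary like the others, as was the lone 68-week library in the 4 highest. Leaving out 1 library each gave -0.20 to 0.012 for Hcn2, -0.0020 to 0.18 for Hcn4, -5.02 to -0.429 percentage points for the Hcn2 share, 0.328 to 4.87 for the Hcn4 share and -0.55 to 0.048 for Isl1, which turned to 0.048 without 68-week replicate 4. Over all genes, 256 higher and 195 lower became 568 and 439 with DESeq2, 73 and 22 with airway markers in the model, 10 and 23 in those lowest in airway markers, 4 and 1 in those highest, and, leaving out 1 library each, 117 to 209 higher and 52 to 154 lower. Of the related genes, 1 higher and 1 lower became 3 higher with DESeq2, 0 and 0 with airway markers in the model and in either airway set, 0 lower with RLE factors or atrial markers in the model, and 0 to 1 higher and 0 lower leaving out 1 library each; fewer libraries were then tested. For the pairing by replicate number, deviations of same-numbered libraries correlated at -0.243, -0.0411, 0.0406 and 0.33, and the same-numbered library was never the closest match. The labels name no pairing, and so few correlations cannot exclude one. The replicate block gave 112 genes higher and 48 lower over all genes and 0 and 0 of the related genes. It left the 4 tested genes uncalled, at -0.074 for Hcn2, 0.078 for Hcn4, 0.36 for Tbx3 and 0.25 for Cntn2. Depth limits Isl1 and Hcn3, with at most 14 and 9 counts per library.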
